A study of Mus musculus with 5 samples.

Results

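Transcripts of 10 genes of the nuclear export machinery were measured in prostate tumor tissue of castrated and intact mice. The genes are the export receptors Xpo1, Xpo4, Xpo5, Xpo6, Xpo7, Xpot and Cse1l, and the small GTPase Ran with its cofactors Ranbp1 and Rcc1. They were chosen by gene symbol, as receptors and Ran cofactors of nuclear export, from the 24527 genes of the count table, and all 10 were found and passed the filter on low counts. RNA was sequenced from 3 castrated and 2 intact mice, which the study calls TripleTg and analyzed at 8 months of age. Castration was at 4 months. Both groups carried the same 4 alleles (hHGFtg, hMETtg, BCAT and PBCre), a human HGF transgene expressed throughout the body, and a human MET transgene and a stabilized β-catenin that a Cre recombinase switches on in prostate epithelium from the probasin promoter. Every comparison is therefore between tumors of one genotype on a mixed C57BL/6 and C3H SCID background, with no tumor-free prostate among the samples. Castrated replicates 1 to 3 had 28015507, 18951782 and 20492061 counted reads, and the intact pair had 21560355 and 22853501. At that depth the least counted member, Rcc1, still had between 345 and 587 reads per sample, so the spread between mice and not counting error set the precision.

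Proteins and RNAs leave the nucleus bound to exportins, receptors that hold their cargo only together with Ran in its GTP form. Rcc1 encodes the chromatin-bound exchange factor that loads Ran with GTP in the nucleus. In the cytoplasm Ranbp1, with the GTPase-activating protein encoded by Rangap1, dissociates the complex and sets off GTP hydrolysis, which frees the cargo and gives transport its direction. Xpo1, also called CRM1, encodes the receptor for leucine-rich export signals and for new ribosomal subunits, and is the target of the inhibitor selinexor. The study asked whether the transcription factor SP1 acts on Xpo1 in these tumors, and the Xpo1 transcript was quantified by qRT-PCR relative to Ppia.

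Promoter sequences from RefSeq (GRCm38.p6, the assembly that mm10 stands for) were used for 7 of the 10 genes, without Xpo4, Xpo7 and Cse1l, and were taken from 250 bases before to 50 bases after the annotated start. The promoters of Xpo1, Ran and Ranbp1 are shown because every castrated sample was below both intact samples for these genes, and because the study asked about SP1 at Xpo1. Each is written 5′ to 3′ on the strand of its gene. Capitals mark the GC box that SP1 recognizes (GGGCGG or CCGCCC) in all of them, CCAAT boxes (CCAAT or ATTGG) in Xpo1 and Ranbp1, the E-box CACGTG in Ran, and the E2F element GGCGGGAA or TTCCCGCC in Ranbp1. The GC box and the E2F element can share letters. The windows are chr11:23255791-23256090 on the plus strand for Xpo1, chr5:129019906-129020205 on the plus strand for Ran and chr16:18248645-18248944 on the minus strand for Ranbp1.
Xpo1: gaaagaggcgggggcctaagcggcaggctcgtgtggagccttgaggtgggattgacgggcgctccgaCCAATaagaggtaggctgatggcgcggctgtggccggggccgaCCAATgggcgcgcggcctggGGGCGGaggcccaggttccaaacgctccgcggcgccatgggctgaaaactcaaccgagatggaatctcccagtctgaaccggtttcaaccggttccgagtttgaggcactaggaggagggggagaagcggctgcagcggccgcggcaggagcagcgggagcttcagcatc
Ran: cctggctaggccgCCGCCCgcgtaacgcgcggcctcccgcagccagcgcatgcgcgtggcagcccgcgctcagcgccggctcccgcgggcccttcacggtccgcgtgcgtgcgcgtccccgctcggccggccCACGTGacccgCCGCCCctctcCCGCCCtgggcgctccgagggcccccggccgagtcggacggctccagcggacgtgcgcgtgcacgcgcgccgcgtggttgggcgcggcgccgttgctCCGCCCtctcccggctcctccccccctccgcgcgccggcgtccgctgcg
Ranbp1: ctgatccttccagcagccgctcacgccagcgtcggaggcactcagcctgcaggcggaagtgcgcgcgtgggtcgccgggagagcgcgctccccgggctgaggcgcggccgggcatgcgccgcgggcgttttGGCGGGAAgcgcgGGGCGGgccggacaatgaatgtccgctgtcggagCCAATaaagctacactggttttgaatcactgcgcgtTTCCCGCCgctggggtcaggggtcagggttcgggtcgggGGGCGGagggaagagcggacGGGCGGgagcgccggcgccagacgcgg

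The Xpo1 window holds 1 GC box, whose first base lies 120 bases before the start, and 2 CCAAT boxes 183 and 140 bases before it. The Ran window holds 4 GC boxes and 1 E-box, and the Ranbp1 window 3 GC boxes, 1 CCAAT box and 2 E2F elements. All 7 available promoters hold a GC box, as do 35.7% of the 32851 RefSeq promoter windows of the same length. A CCAAT box is in 3 of the 7 and in 37.4% of all windows, the E-box in 2 (Ran and Xpot) and in 7.15%, and the E2F element in 1 and in 2.19%. The GC content of the 7 windows ran from 54.3% for Rcc1 to 82.0% for Ran. The windows of the background were not matched for it, and the motifs were chosen with the sequences in view. These are matches of letters and no measure of binding.

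All 10 genes had a lower mean in castrated than in intact tumors, with log2 fold changes from -0.70 for Ran to -0.09 for Cse1l and a median of -0.29. A log2 fold change below 0 was found for 52.1% of the 14612 genes tested (median -0.03). The count of members below 0 was 6 on log2(TPM + 1) and 9 in a fit blocked on replicate number. Ran, Ranbp1 and Xpo1 had all 3 castrated values under both intact values, and the groups of the other 7 genes overlapped. Over all genes tested, every castrated sample was below both intact samples for 16.1% and above both for 17%. On TPM, 0 of the 10 genes and 10.7% of all genes tested were lower in this way. None of the 10 genes was called (absolute log2 fold change over 1, adjusted p below 0.05), and neither was any other gene, a background of 0% (edgeR's quasi-likelihood test). At an unadjusted p under 0.05, Ran was the single member, against 6.28% of all genes that passed in the lower and 8.74% in the higher direction. That call depends on the version of the fit. Ran had an unadjusted p of 0.0442 with the newer quasi-likelihood fit of edgeR and of 0.0505 with its older one, with which 0 members and 5.93% of all genes passed in the lower direction, and the newer fit was adopted after the older fit's values had been seen. DESeq2 called 989 genes and edgeR's likelihood ratio test 369 genes after adjustment, with 0 of the 10 members among them by either tool. In simulated data these tests called 92 and 64 unchanged genes, against 5 by the quasi-likelihood test. The plot of counts by sample shows the separation of Ran and Ranbp1 and the wide gap between the intact samples for Xpot, Cse1l and Xpo7. In bulk tissue, fewer cells of a type and less RNA per cell cannot be told apart.

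**Figure D1:**
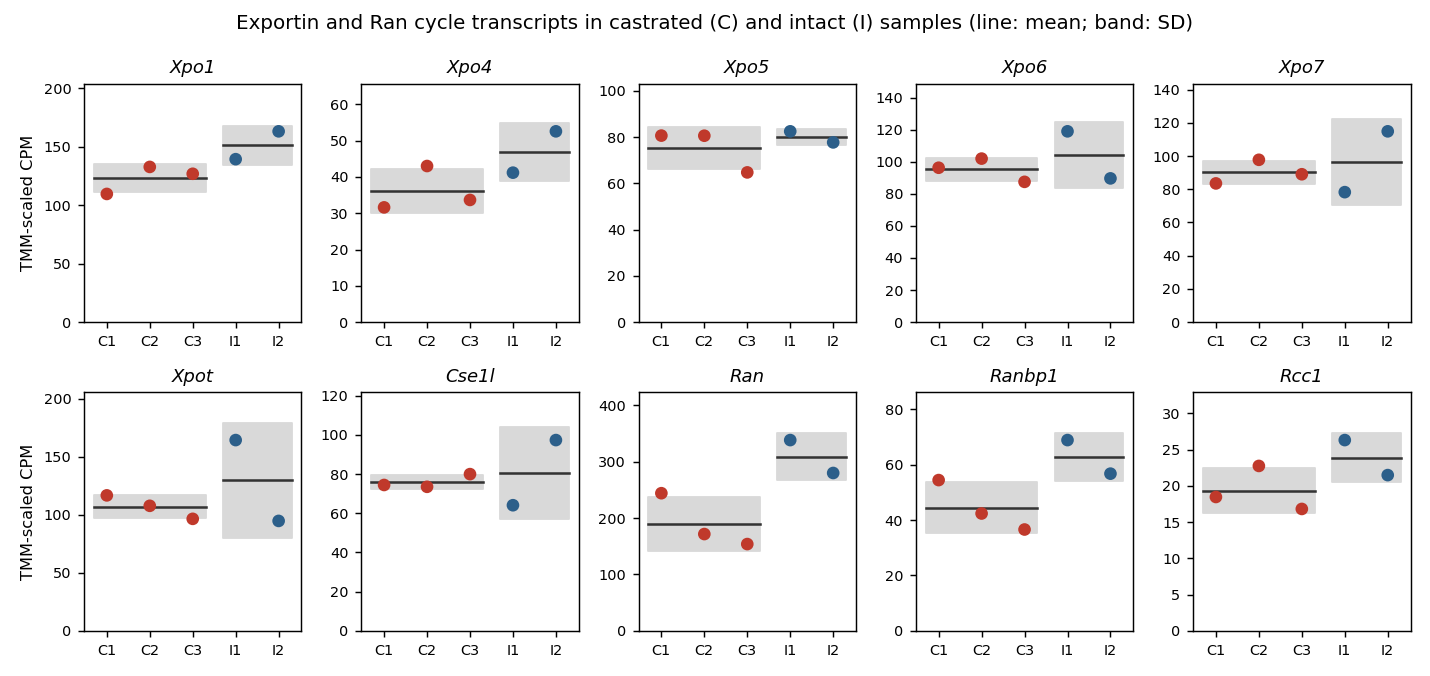
Each panel plots the TMM-scaled CPM of 1 gene (y axis, from 0) in castrated samples C1 to C3 (red) and intact samples I1 and I2 (blue), with the group mean as a line and the SD as a band. Xpo1, Ran and Ranbp1 are the 3 genes in which all red points lie below both blue points.

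Xpo1 lies on chromosome 11 from 23256041 to 23297597 on the plus strand. Its level, in CPM (a gene's counts relative to the TMM-scaled total of its library), was 110, 133 and 127 in the castrated group (replicates 1 to 3) and 139 and 163 in the intact group (replicates 1 and 2). The highest castrated sample was thus only slightly below the lowest intact one, and castrated replicate 1 was the lowest of all. The group means were 123 ± 12.02 (SD, n = 3) and 151 ± 16.9 (SD, n = 2), a ratio of castrated to intact of 0.814. The log2 fold change was -0.30 (standard error, SE, 0.19, 95% interval from -0.77 to 0.18, edgeR adjusted p = 0.493). In this fit the interval runs from a ratio of 0.585 to a ratio of 1.13. A higher level after castration of more than 1.13 times lay outside it, a limit that belongs to this fit. The separation of the groups depended on the scaling. On TPM, a unit that divides by gene length and by the length-scaled total of each library, the groups overlapped. Xpo1 was at 50.3, 61.4 and 57.5 TPM in castrated and 67.3 and 59.1 TPM in intact samples. With limma on log2(TPM + 1) its log2 fold change was -0.16.

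Since qRT-PCR values for Xpo1 were expressed relative to Ppia, the cyclophilin A gene, the ratio of the counts of both genes was computed in each sample. Ppia itself was at 626, 567 and 542 CPM in castrated and 862 and 809 CPM in intact samples, so all castrated values were under both intact ones (log2 fold change -0.53, SE 0.24, edgeR adjusted p = 0.370). For every 100 Ppia reads there were 17.5, 23.4 and 23.4 Xpo1 reads in castrated and 16.2 and 20.2 in intact samples. In this ratio castrated replicates 2 and 3 were above both intact samples, and castrated replicate 1 lay between them. The ratio was 1.18 times higher in castrated samples (exact permutation test, two-sided, p = 0.4, where 0.2 is the smallest value that 3 against 2 samples allow). Against the geometric mean of Actb, Gapdh, Hprt and Tbp, the Xpo1 ratio was 0.422, 0.440 and 0.532 in castrated and 0.453 and 0.588 in intact samples, 0.895 times as high in castrated samples (exact permutation test, two-sided, p = 0.4). The sign of the Xpo1 difference therefore turned with the reference gene, and the groups overlapped in both ratios. The row for Ppia in the count table spans chromosome 9 from 6415867 to 96896354, while GENCODE (mm10) places the gene on chromosome 11 from 6415443 to 6419817, so its counts may draw on more than 1 locus.

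**Figure D2:**
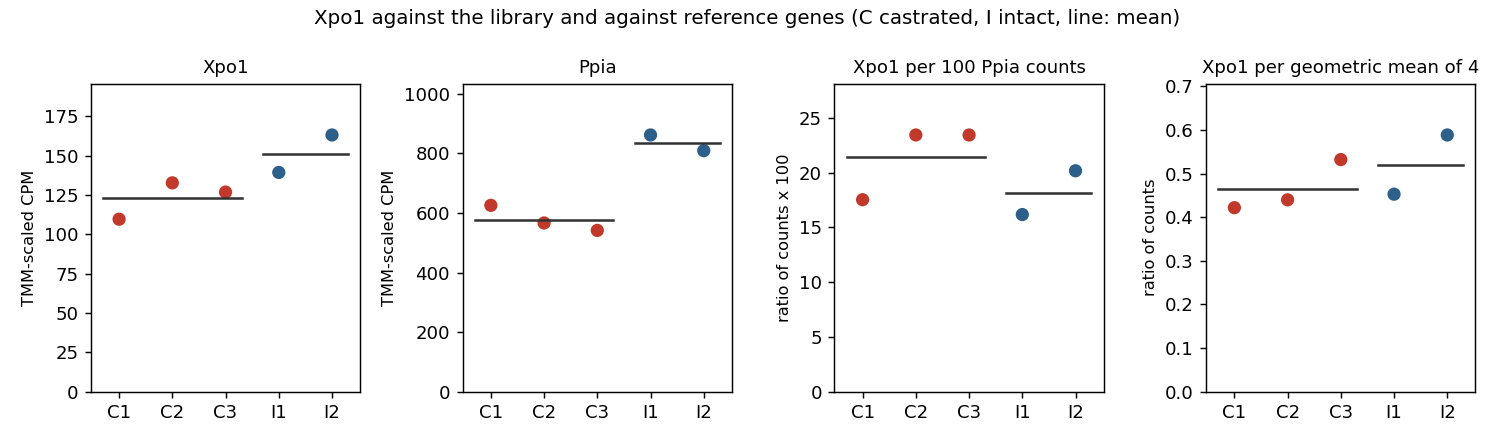
The panels plot Xpo1 and Ppia in TMM-scaled CPM and the ratio of Xpo1 counts to Ppia counts (times 100) and to the geometric mean of 4 other genes (Actb, Gapdh, Hprt, Tbp) in castrated (C1 to C3, red) and intact samples (I1, I2, blue), with group means as lines. Xpo1 and Ppia are each lower in all castrated samples, and their ratio has a higher mean in castrated samples (21.5 against 18.2).

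Ran, the GTPase whose nucleotide state sets the direction of transport, lies on chromosome 5 from 129020156 to 129024321 on the plus strand. Its level was 244, 172 and 154 CPM in the castrated group and 338 and 280 CPM in the intact group. Castrated replicate 1 was the nearest to the intact samples, and the other castrated samples were further below both. The means were 190 ± 47.8 (SD, n = 3) and 309 ± 41.3 (SD, n = 2), and the log2 fold change was -0.70 (SE 0.27, 95% interval from -1.38 to -0.03, edgeR adjusted p = 0.327). In the newer quasi-likelihood fit this is the one interval among the 10 genes that did not include 0, as the plot of fold changes shows. With the older quasi-likelihood fit the unadjusted p of Ran was 0.0505. Leaving out 1 sample at a time moved the log2 fold change of Ran between -0.92, without castrated replicate 1, and -0.54, without intact replicate 1. On TPM castrated replicate 1, at 251, was above intact replicate 2, at 227. Rasl2-9, a copy of Ran elsewhere in the genome, had between 3 and 5 reads per sample, and reads shared with other copies of Ran were not resolved.

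Ranbp1, the cofactor that helps to take Ran off the export complex, lies on chromosome 16 from 18239979 to 18248694 on the minus strand. It was at 54.4, 42.4 and 36.6 CPM in castrated and 68.9 and 56.8 CPM in intact samples, in the same order of samples as Ran. The log2 fold change was -0.50 (SE 0.24, 95% interval from -1.11 to 0.12, edgeR adjusted p = 0.389). Relative to Ran, Ranbp1 varied little: for every 100 Ran reads there were 22.3, 24.7 and 23.8 Ranbp1 reads in castrated and 20.4 and 20.3 in intact samples. In this ratio all castrated samples were above both intact samples (exact permutation test, two-sided, p = 0.2, the smallest value possible). The other ratios between members overlapped between the groups. By the same test, p was 0.4 for Ran to Xpo1, 0.6 for Rcc1 to Ran and 0.4 for Cse1l to Xpo1. How many gene pairs of the whole table separate in this way was not computed. In GENCODE, exons of Gm49776 on the same strand cover 16.9% of the exon bases of Ranbp1.

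Rcc1, which loads Ran with GTP, lies on chromosome 4 from 132331919 to 132345750 on the minus strand and had the lowest CPM of the 10 genes. It was at 18.5, 22.7 and 16.8 CPM in castrated and 26.3 and 21.5 CPM in intact samples, and castrated replicate 2 lay between the intact samples. The log2 fold change was -0.31 (SE 0.26, 95% interval from -0.96 to 0.35, edgeR adjusted p = 0.613).

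**Figure D3:**
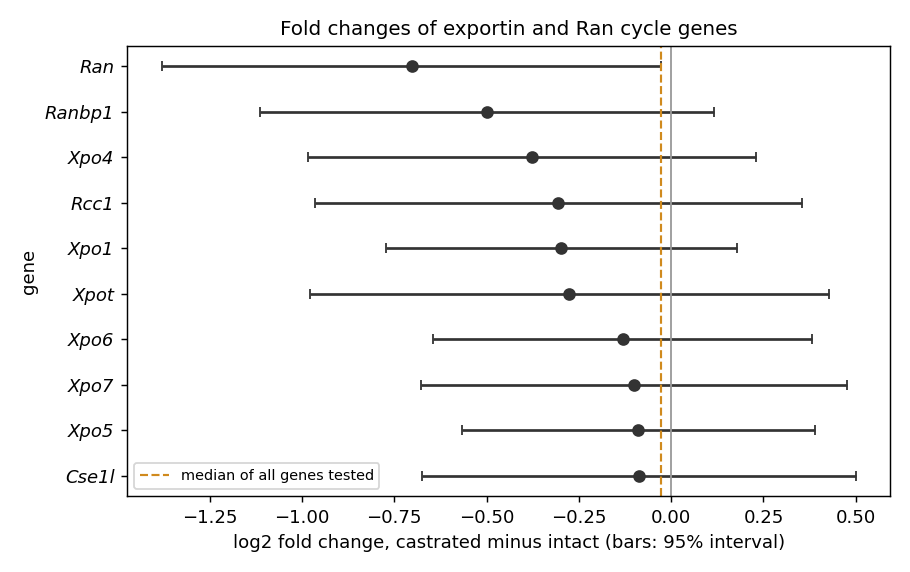
Points give the log2 fold change of each gene, castrated minus intact (x axis), with the median of all genes tested as a dashed line. Bars give the 95% interval of edgeR's newer quasi-likelihood fit. All 10 points are left of 0, and the bar of Ran alone ends before 0.

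Cse1l encodes the receptor that returns importin α to the cytoplasm after each import cycle. It was nearly constant in castrated samples, at 74.5, 73.5 and 80.0 CPM, and spread in intact samples, at 64.1 and 97.4 CPM on either side of them. Its log2 fold change was -0.09 (SE 0.23, 95% interval from -0.68 to 0.50). Xpo7, a receptor with a broad range of protein cargo, had the same arrangement, with 83.5, 97.7 and 89.0 CPM in castrated samples between the 78.2 and 115 CPM of the intact ones. Over the 45 pairs of members, Xpo7 and Cse1l had the closest patterns across the 5 samples (root mean square difference of centred log2 CPM 0.093), followed by Xpo1 with Xpo4 (0.107) and Ran with Ranbp1 (0.115).

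Xpo4, which exports the translation factor eIF5A and SMAD3, was at 31.6, 43.0 and 33.7 CPM in castrated and 41.2 and 52.6 CPM in intact samples. Castrated replicate 2 was above intact replicate 1, and the log2 fold change was -0.38 (SE 0.24, 95% interval from -0.98 to 0.23). Xpo5, the receptor for precursor microRNAs, was close to level, with 80.6, 80.6 and 64.7 CPM in castrated and 82.5 and 77.7 CPM in intact samples (log2 fold change -0.09, SE 0.19). Xpo6, which carries actin with profilin out of the nucleus, was at 96.3, 102 and 87.5 CPM in castrated and 119 and 89.7 CPM in intact samples (log2 fold change -0.13, SE 0.20). Xpot, the tRNA export receptor, was at 117, 108 and 96.6 CPM in castrated and 164 and 94.8 CPM in intact samples (log2 fold change -0.28, SE 0.28). The intact samples differed 1.74 times in Xpot, the widest gap between them among the 10 genes, and all castrated samples lay inside it. For Xpo4, Xpo5, Xpo6, Xpo7, Xpot and Cse1l the adjusted p ranged from 0.496 to 0.885 (edgeR's quasi-likelihood test).

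Because each group is small, every fold change was recomputed with 1 sample left out. Xpo1, Xpo4, Ran, Ranbp1 and Rcc1 were below 0 in all 5 of these fits, with Xpo1 between -0.39, without intact replicate 1, and -0.22, without castrated replicate 1. The sign of the other members turned on a single library. Without intact replicate 1 the log2 fold change was 0.20 for Xpot and 0.11 for Xpo6. Without intact replicate 2 it was 0.20 for Cse1l and 0.16 for Xpo7, and without castrated replicate 3 it was 0.02 for Xpo5. The count of members lower in every castrated sample was 7 without intact replicate 2, 6 without intact replicate 1 and 5 without castrated replicate 2. With fewer samples more genes separate, and the share of all genes tested that did so was 34.4%, 35.6% and 19.7% in these fits, against 16.1% with all samples. Ran and Ranbp1 both passed the unadjusted level without castrated replicate 1, Ran and Xpot did so without intact replicate 2, and 0 members did without castrated replicate 2, castrated replicate 3 or intact replicate 1. Of all genes tested in these fits, 5.78%, 6.62%, 2.67%, 2.68% and 10.5%, in that order, passed in the lower direction.

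**Figure D4:**
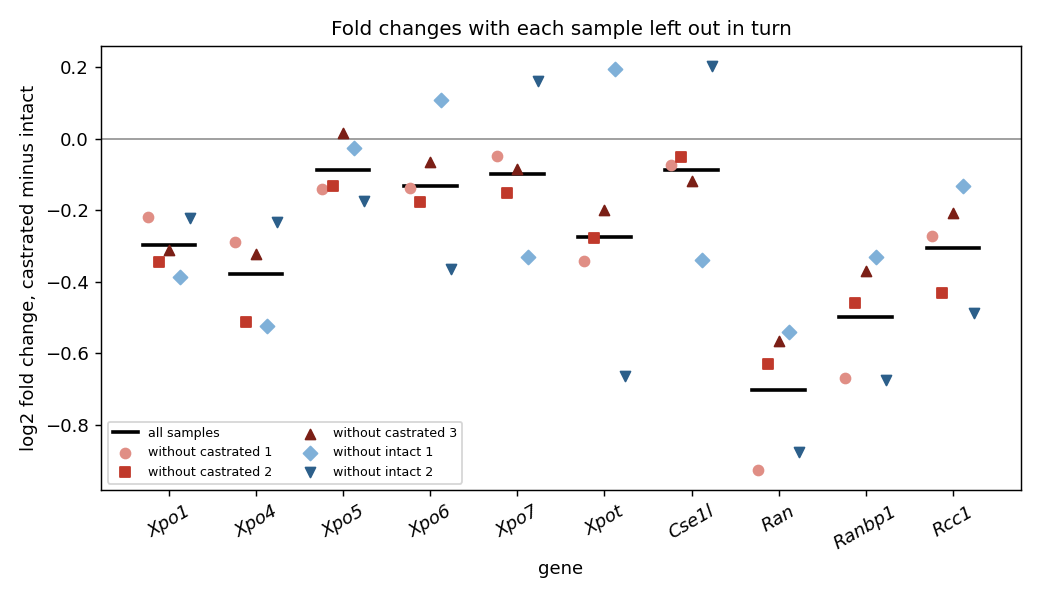
For each gene (x axis) the black line is the log2 fold change from all samples, castrated minus intact, and the symbols are the values with 1 named sample left out. Xpo1, Xpo4, Ran, Ranbp1 and Rcc1 stay below 0, and Xpo5, Xpo6, Xpo7, Xpot and Cse1l each have 1 symbol above it.

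Levels of different genes were compared per gene length, on TPM. The order rests on the deposited lengths, which differ from GENCODE exon bases for some genes. Deposited lengths were 0.846 kilobases for Ranbp1, 2.316 for Rcc1 and 7.294 for Xpo7. All GENCODE exons together cover 1666, 3848 and 19005 bases, in that order. The TPM order with GENCODE lengths was not computed. Ran was the most abundant, between 156 and 366 TPM, and Ranbp1 the next, between 100.3 and 201 TPM. Ran exceeded Ranbp1 in 5 of 5 samples, although their ranges over the samples overlapped. Among the export receptors Xpo1 had the highest mean, 59.1 TPM, and the highest level in 4 of 5 samples, and in intact replicate 1 Xpot, at 67.9 TPM, was just above its 67.3 TPM. Xpo1 made up 18.9%, 21.6% and 22.4% of the summed TPM of the 7 receptors in castrated samples and 21.0% and 24.5% in intact samples, with overlap of the groups. Xpo6, Cse1l and Xpot followed with means of 49.98, 48.8 and 44.6 TPM and could not be ranked, as Xpo6 was above Cse1l in 3 of 5 and Cse1l above Xpot in 4 of 5 samples. Xpo5 (35.0 TPM), Xpo7 (28.5 TPM) and Rcc1 (20.8 TPM) had overlapping ranges between neighbours. Xpo4 was the lowest, between 6.22 and 8.53 TPM, and below every value of Rcc1. Ran accounted for 36.6%, 29.5% and 29.5% of the summed TPM of the 10 genes in castrated and 40.02% and 37.2% in intact samples, so its share was lower in all castrated samples.

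**Figure D5:**
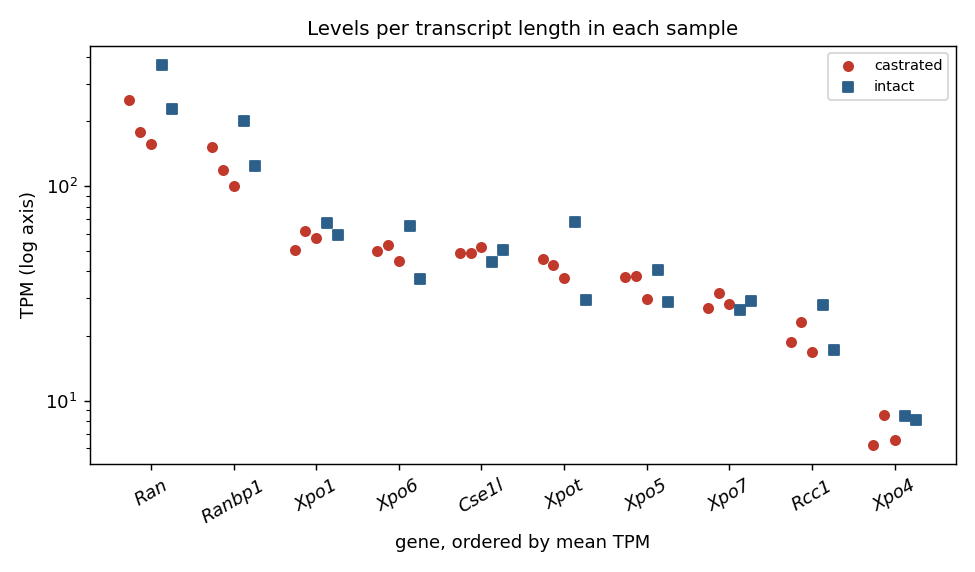
Points give the TPM of each gene (log axis, from the deposited gene lengths) in castrated (red circles) and intact samples (blue squares). Genes are ordered by mean TPM. Ran and Ranbp1 lie above 100 TPM in all samples, the receptors other than Xpo4 between 26.5 and 67.9 TPM, and Xpo4 at 8.53 TPM or less.

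The other genes of the Ran cycle leaned the same way. Of 8 listed genes, 7 were tested, while Ranbp3l had too few reads. All 7 had a log2 fold change below 0, with a median of -0.38, against 52.1% of all genes tested below 0. Ranbp2, the large nucleoporin on the cytoplasmic face of the pore, was at 254, 251 and 208 CPM in castrated and 314 and 307 CPM in intact samples, without overlap (log2 fold change -0.39, SE 0.20, edgeR adjusted p = 0.408). Nutf2, which carries Ran back into the nucleus, was at 23.9, 17.2 and 18.6 CPM in castrated and 24.5 and 27.3 CPM in intact samples, also without overlap (log2 fold change -0.38, SE 0.26, edgeR adjusted p = 0.518). Rangap1 was at 106, 79.1 and 95.01 CPM in castrated and 111 and 98.7 CPM in intact samples, with overlap.

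Among 12 adaptors and carriers of RNA and pre-ribosome export, 8 had a log2 fold change below 0 and 4 above it, with a median of -0.36. In this list 6 genes (Nxf1, Ddx39b, Riok2, Gle1, Nmd3 and Alyref) were lower in every castrated sample, and Nxf1, Ddx39b and Riok2 passed the unadjusted level. Over all genes tested, 52.1% were below 0, 16.1% were lower in every castrated sample and 6.28% passed in the lower direction. Nxf1, the main receptor for mRNA export, which works without Ran, was at 91.6, 88.0 and 104 CPM in castrated and 151 and 181 CPM in intact samples (log2 fold change -0.81, SE 0.19, edgeR adjusted p = 0.289). Ddx39b, the helicase that loads the mRNA export machinery, had a log2 fold change of -0.58. Riok2, a kinase of late small-subunit maturation, had one of -0.53. The 4 genes above 0 serve the export of capped RNA and the return of small nuclear RNA to the nucleus, with log2 fold changes of 0.21 for Phax, 0.21 for Snupn, 0.15 for Ncbp1 and 0.11 for Ncbp2, and their groups overlapped.

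Of 16 importin α and β genes, 14 had a log2 fold change below 0, with a median of -0.17. In this list 6 were lower in every castrated sample, but 0 passed the unadjusted level. The shares of all genes tested were 52.1% below 0, 16.1% lower in every castrated sample and 6.28% past the level in the lower direction. The smallest p values were those of Kpna2 (log2 fold change -0.48), Ipo7 (-0.55) and Tnpo2 (-0.51). Kpna2 encodes an importin α, a cargo of Cse1l. Among 7 genes for exportin cargo or for enzymes that make it, 0 passed the unadjusted level, and the smallest p values were those of Dgcr8 (-0.41), Eif5a (-0.46) and Actb (0.41). Eif5a, a cargo of Xpo4, was at 450, 405 and 355 CPM in castrated and 568 and 543 CPM in intact samples. Actb, whose product leaves by Xpo6, was higher in every castrated sample, as were 17% of all genes tested. Its log2 fold change had an SE of 0.46 (edgeR adjusted p = 0.709). Of the 7 genes in this list, 6 had a log2 fold change below 0 and 1 above it. In every castrated sample, 2 of them were lower and 1 was higher.

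Sp1 was at 129, 167 and 182 CPM in castrated and 124 and 182 CPM in intact samples, which overlapped in full (log2 fold change 0.05, SE 0.26, edgeR adjusted p = 0.941). The related Sp3 and Sp4 had log2 fold changes of 0.14 and -0.11. Myc, a transcriptional activator of growth genes, was at 69.2, 89.8 and 51.1 CPM in castrated and 196 and 85.9 CPM in intact samples, and its log2 fold change of -1.01 rested on the high value of intact replicate 1. Ctnnb1, of which the mice carry a stabilized allele, was at 2902, 1334 and 1189 CPM in castrated and 1812 and 765 CPM in intact samples. Over the 5 samples, the genes with a pattern nearest to that of Xpo1 were Arid4b, Sf1, Nsmce4a, Seh1l and Gsk3b, with root mean square differences of centred log2 CPM between 0.030 and 0.036 among 14611 genes compared. Those nearest to Ran were 4921524J17Rik, Gtf2ird1, Smagp, Tmem70 and Mat2a, with differences between 0.043 and 0.064. Seh1l encodes a subunit of the nuclear pore, and a link of any of these neighbours to Xpo1 or Ran was not tested.

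Marker genes of proliferation and of tissue types differed between the same samples, and their part in the differences of the export genes was not tested. Of 12 proliferation genes, 12 had a log2 fold change below 0, 10 passed the unadjusted level and 11 were lower in every castrated sample. Of all genes tested, 52.1% were below 0, 6.28% passed in the lower direction and 16.1% were lower in every castrated sample. The summed level of the proliferation genes was 191, 262 and 287 CPM in castrated and 460 and 552 CPM in intact samples. Mki67 was at 18.7, 30.5 and 40.3 CPM in castrated and 101 and 128 CPM in intact samples. The 8 epithelial genes summed to 4357, 3965 and 4644 CPM in castrated and 6476 and 4059 CPM in intact samples, with 0 past the unadjusted level. Adipocyte genes summed to 277, 2975 and 2160 CPM in castrated and 165 and 332 CPM in intact samples. Of these 10, 10 had a log2 fold change above 0 and 6 passed the unadjusted level, against 8.74% of all genes tested in the higher direction. Lep had 0 reads in castrated replicate 1 and both intact samples. Adipoq, Plin1, Cidec, Cfd and Retn each had 0 reads in 1 or both intact samples.

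Macrophage genes summed to 2597, 7327 and 2936 CPM in castrated and 1091 and 1661 CPM in intact samples. All 8 of 8 were higher in every castrated sample and 7 were past the unadjusted level. Over all genes tested, 17% were higher in every castrated sample and 8.74% passed in the higher direction. The same shares are the background for the lists that follow. Smooth muscle genes summed to 374, 670 and 605 CPM against 198 and 138 CPM, with 6 of 6 past the unadjusted level. Fibroblast genes summed to 4326, 5416 and 7188 CPM against 4137 and 2469 CPM, with 3 of 6 past the level. Endothelial genes summed to 347, 224 and 266 CPM against 371 and 131 CPM, with 2 of 5 past it. The 6 T cell genes in the table were at 18.9, 50.5 and 51.7 CPM against 12.7 and 38.7 CPM, with 0 past it. Basal cell genes were at 314, 342 and 852 CPM against 76.4 and 702 CPM, with 1 of 4 past it, and neuroendocrine genes were at 35.5, 46.9 and 55.7 CPM against 47.1 and 13.01 CPM, with 4 of 5 tested past it. By mean CPM over the 5 samples, the most abundant genes of these lists were Lyz2 for macrophages and Ncam1 for neuroendocrine cells, each the highest of its list in 5 of 5 samples, and Pcna for proliferation and Lpl for adipocytes, in 4 of 5. Krt8 for epithelium, Krt5 for basal cells and Acta2 for smooth muscle were the highest in 3 of 5, and Cd4 for T cells, Dcn for fibroblasts and Cdh5 for endothelium in 2 of 5. Over all genes tested, the samples did not all group by condition (correlation of log2 CPM). Intact replicate 1 correlated at 0.922 with castrated replicate 1 and at 0.848 with intact replicate 2. Castrated replicate 1 correlated at 0.910 and 0.885 with castrated replicates 2 and 3. The intact samples were also unlike each other in secretory markers of the prostate: Tgm4 was at 1347 CPM in intact replicate 2, against 0.22 CPM in intact replicate 1. In castrated samples Tgm4 was at 0.42 CPM or less, Pbsn was at most 5.21 CPM in any sample, and Msmb had 0 reads throughout. The labelled tissue is prostate, and its 5 secretory markers together reached at most 23.0 CPM in 4 of 5 samples.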

How the data were processed

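The authors removed adapters with Trimmomatic 0.39, aligned paired-end reads of ribosomal RNA-depleted total RNA to mm10 with STAR 2.7.9 and counted reads per gene with HTSeq 2.0.2. They deposited raw counts, one column per mouse, with gene length in kilobases, and the strand setting is not given in the sources used here. Groups follow the condition given in the sample titles, and all samples were used.

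Counts were analyzed with R 4.3.3 and edgeR 4.0.16. Genes with CPM above 1 in at least 2 samples entered a quasi-likelihood F-test on TMM-scaled counts, castrated minus intact, with Benjamini-Hochberg adjustment over all genes. The reported fit is edgeR's newer quasi-likelihood method. The older method, the default of the installed version, was run first, and the newer one was adopted after those values had been seen. The change moved Ran from an unadjusted p of 0.0505 to 0.0442 and altered no adjusted call. Intervals are 95% from its moderated degrees of freedom. TPM was computed from the deposited lengths. Alternatives used limma 3.58.1 and DESeq2 1.42.0. The procedures were tested on simulated data. No 2 samples of a group were the same library (chi-square per gene 134 or more).

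The members and gene lists were chosen with earlier results of these data known, and the motifs with the sequences in view. Named genes are all members, Sp1, Myc, Ctnnb1, Ppia, Mki67, the 3 smallest p values of each transport list, the 5 nearest patterns to Xpo1 and Ran, and the most abundant gene and any at 0 of each marker list. Some genes that this rule names are not reported here. Other genes named in the lists were chosen after their values were seen. The replicates are separate samples by label, and p values measure the spread between them.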

Additional observations from a re-analysis of the deposited data

How the results depend on the processing

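Xpo1, Xpo4, Ran, Ranbp1 and Rcc1 kept a log2 fold change below 0 under all 18 alternatives, and 0 members were called after adjustment under any. One alternative, castrated replicate 1 alone against the intact samples, was added once the data had been seen, and the newer quasi-likelihood fit was adopted in the same way. Where a value moved, the cause was not tested. Against 0 genes called, DESeq2 called 989 and the likelihood ratio test 369. The count of members at an unadjusted p under 0.05 went from 1 to 0 with library size only, the likelihood ratio test, the older quasi-likelihood fit, the replicate block, log2(TPM + 1) with limma, and castrated replicate 1 alone. The share of all genes passing in the lower direction was 5.84%, 5.06%, 5.93%, 1.83%, 3.53% and 0.557% in that order, against 6.28%. On log2(TPM + 1), with a median over all genes of 0.12 in place of -0.03, 0 members were lower without overlap, the members' median was -0.13, and Xpo5 (0.035), Xpo6 (0.011), Xpo7 (0.054) and Cse1l (0.073) reversed. With the replicate block, 1046 genes passed the unadjusted level against 2195, the members' median was -0.18 and Xpo5 reversed to 0.0099. Deviations of same-numbered samples correlated at 0.15 for replicate 1 and -0.05 for replicate 2, and these are different mice. With castrated replicate 1 alone, 257 genes passed, 5 members and 29.5% of all genes tested were lower without overlap, Xpo5 was 0.0048 and the log2 Xpo1 to Ppia ratio difference was -0.043, against 0.24 with all samples and -0.16 with the 4 other reference genes. With each sample left out, genes called ranged from 0 to 1 (Coch, without intact replicate 1, named for this call), genes at the unadjusted level from 1011 to 3292, members at that level from 0 to 2 (2.67% to 10.5% of all genes, lower) and members lower without overlap from 3 to 7, where 18.5% to 35.6% of all genes separated. Log2 fold changes then ranged from -0.17 to 0.016 for Xpo5, -0.36 to 0.11 for Xpo6, -0.33 to 0.16 for Xpo7, -0.66 to 0.20 for Xpot and -0.34 to 0.20 for Cse1l, and the log2 ratio to Ppia from 0.077 to 0.40. A group left with 1 sample is assumed to vary like the other.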
